A study of Mus musculus with 4 samples.

Results

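The insulin-like growth factor (IGF) system was examined in RNA of whole mouse olfactory bulbs as 10 genes taken by symbol from a table of 20032: the ligands Igf1 and Igf2, the receptors Igf1r and Igf2r, and the binding proteins Igfbp2, Igfbp3, Igfbp4, Igfbp5, Igfbp6 and Igfbp7. The symbols were matched exactly, and all 10 were found. The study compared 2 DCKO bulb samples with 2 control samples at postnatal day 11, all on a mixed background of C57BL/6J, 129S6 and CD1. DCKO (double conditional knockout) mice were Sp8 Flox/Flox and Sp9 Flox/Flox and carried the transgene Dlx5/6-CIE. The controls were littermates without Cre, and the labels used here do not give their floxed alleles. The 2 deleted genes encode zinc finger regulators of the Sp family, and the Dlx5/6 enhancer of the transgene drives Cre in forebrain GABAergic precursors, so the deletion concerns cells of that lineage. The labels do not say whether the libraries of a genotype came from separate animals, and p-values measure the spread between these libraries, which may be technical.

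IGF-I and IGF-II are small secreted relatives of insulin that signal through the receptor tyrosine kinase IGF1R, while IGF2R, the cation-independent mannose 6-phosphate receptor, mainly takes up IGF-II for degradation. Most secreted IGF is held by binding proteins, which carry the ligand, restrict its access to the receptor or release it locally when proteases cut them. In the rodent brain, Igf1 is made by several neuron types, among them projection neurons of the olfactory bulb, and by activated microglia, whereas Igf2 is made mainly outside the neural tissue, in the meninges, the choroid plexus and vessels. In most mouse tissues, but not in all, Igf2 and Igf2r are imprinted, Igf2 being expressed mainly from the paternal allele and Igf2r from the maternal allele.

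Both targeted genes were low in the DCKO libraries. Sp8 stood at 1.68 and 2.03 FPKM (fragments scaled by transcript length and by the mapped fragments of the library) in DCKO, against 32.0 and 26.7 FPKM in controls, and Sp9 at 0.0674 and 0.236 FPKM in DCKO, against 24.0 and 30.7 FPKM in controls. The deposited scaled counts summed to 14632502 to 14899179 in DCKO libraries and 15033308 to 15400982 in control libraries. Control library 1 stood apart: of 10 markers of olfactory sensory neurons and nasal tissue, the detoxifying enzyme gene Cyp2g1 was at 0.0983 and 0.153 FPKM in DCKO and at 89.2 and 1.20 FPKM in controls 1 and 2, and Bpifa1, a secreted airway protein gene, was at 0.139 and 0.521 FPKM in DCKO and at 68.3 and 0.549 FPKM in controls 1 and 2. The summed FPKM of that list was 210 and 169 in DCKO and 495 and 119 in controls 1 and 2, and that of 10 bone markers was 67.5 and 69.0 in DCKO and 157 and 68.0 in controls 1 and 2. The 10 bulb interneuron markers, all of which were called lower in DCKO, summed to 117 and 173 FPKM in DCKO and 1029 and 1018 FPKM in controls. In whole-bulb RNA, fewer cells of a type and less RNA per cell cannot be told apart, and the part that a change in cell makeup has in any value below was not tested.

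All 10 IGF genes were expressed above the filter of a mean of 1 FPKM. Mean FPKM in DCKO was 1.96 times that in controls for Igf1 and 1.24 times for Igfbp7. These values are shares of each library, and the amount of mRNA per bulb was not measured. Both receptors and the binding proteins Igfbp2, Igfbp3, Igfbp4 and Igfbp5 showed no change that passed the test. Igf2 had nearly the same mean ratio as Igf1 but differed more between libraries of a genotype and narrowly missed the threshold. By limma's test on log2(FPKM + 1), two-sided, with Benjamini-Hochberg adjustment over 13434 genes and a threshold of 0.05, 2 of the 10 genes were higher in DCKO, against 13.0% of all tested genes. None of the 10 was lower by the same limma test, against 14.3% of all tested genes. At an unadjusted limma p under 0.05, 4 were higher (Igf1, Igf2, Igfbp6 and Igfbp7) and 1 was lower (Igf2r). That level was passed by 5790 of the 13434 tested genes, counting both directions. Limma on scaled counts called Igf2r lower and 3 of the 10 genes higher. In either direction, 2 of 10 were called, against 27.3% of all tested genes, so the family was not called more often than genes at large. The DCKO libraries both lay outside the control range for 5 of the 10 genes (4 above, 1 below), against 71.5% of all tested genes. The median log2 change was 0.04 over the 10 genes and -0.02 over all tested genes. With 2 libraries a group, no exact permutation test of a single gene can give a two-sided p below 0.333.

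**Figure D1:**
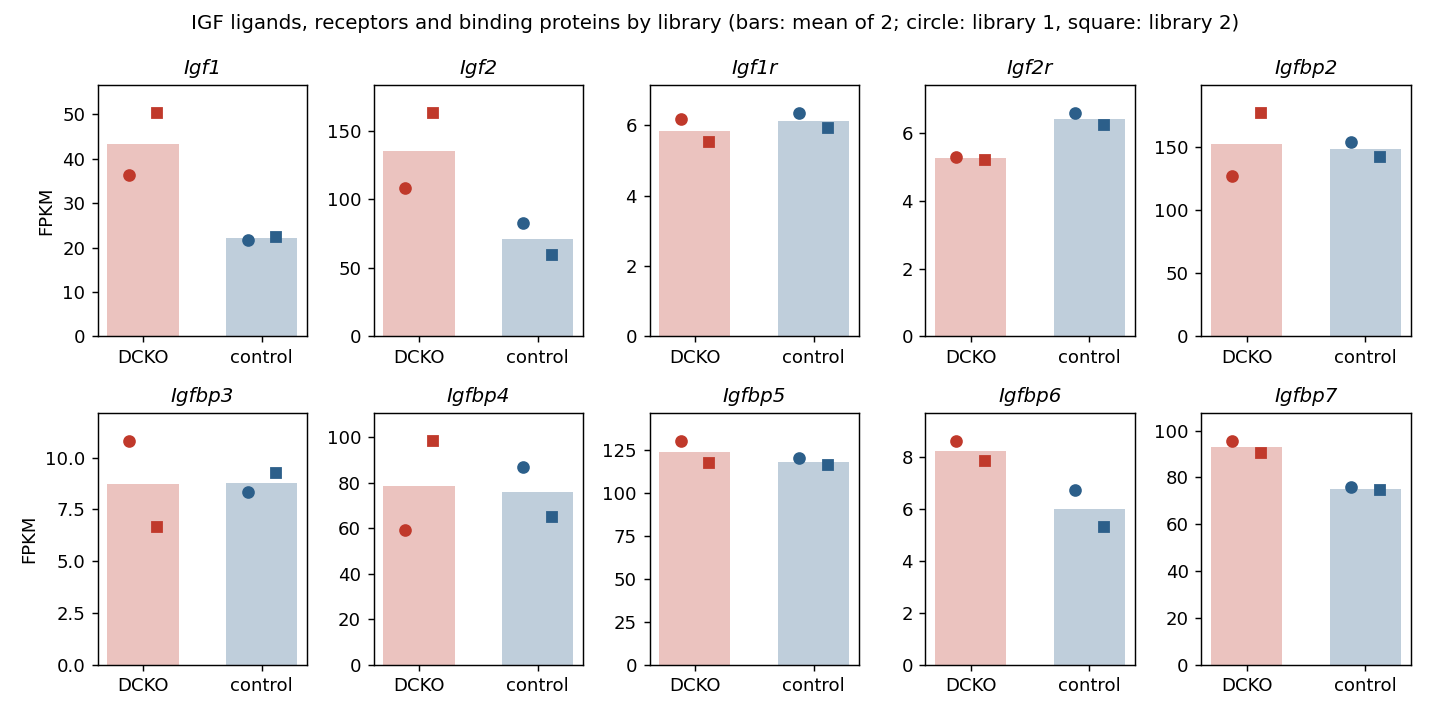
FPKM (vertical axes, each from 0) of the 10 IGF genes in the 2 DCKO and the 2 control libraries, with circles for library 1, squares for library 2 and bars for the mean of 2. The DCKO points lie above both control points for Igf1, Igf2, Igfbp6 and Igfbp7, and below both for Igf2r, and the groups overlap for the other genes.

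The order of abundance within the family, on the FPKM scale, which corrects for transcript length, differed between the genotypes in the place of Igf2, in the order of Igfbp7 and Igfbp4, and in the order of the 3 genes of lowest level. In DCKO the mean levels ran Igfbp2 (152 FPKM), Igf2 (135), Igfbp5 (123), Igfbp7 (93.0), Igfbp4 (78.8), Igf1 (43.3), Igfbp3 (8.69), Igfbp6 (8.24), Igf1r (5.85) and Igf2r (5.25). In controls they ran Igfbp2 (148 FPKM), Igfbp5 (118), Igfbp4 (75.9), Igfbp7 (75.2), Igf2 (70.8), Igf1 (22.1), Igfbp3 (8.79), Igf2r (6.42), Igf1r (6.13) and Igfbp6 (6.03). Igf2 thus ranked 2 in DCKO and 5 in controls, but its DCKO libraries overlapped those of both its neighbours there, Igfbp2 and Igfbp5. The libraries of neighbours also overlapped for Igfbp7 and Igfbp4 and for Igfbp3 and Igfbp6 in DCKO, and in controls for Igfbp4 and Igfbp7, Igfbp7 and Igf2, Igf2r and Igf1r, and Igf1r and Igfbp6. The highly expressed genes were thus ligands and binding proteins, and both receptors were among the genes of low level in both genotypes.

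Because Sp factors as a family bind GC-rich boxes, the bases just upstream of the annotated starts of these genes were read from RefSeq (GRCm38.p6) and searched for GGGCGG, the core of the GC box, on both strands and with overlapping matches counted. All 10 genes matched, with 14 windows of 250 bases, since Igf2 has 4 annotated starts and Igfbp2 has 2. The motif was present in 6 of the 14 windows, belonging to 5 genes (Igf2, Igf1r, Igf2r, Igfbp2 and Igfbp7), against 32.7% of all 32851 windows of the same length in that table. The windows of Igf1, Igfbp3, Igfbp4, Igfbp5 and Igfbp6 did not hold these letters, which says nothing of other forms of the box or of other places. Windows are printed for the called gene Igfbp7, which held the most matches (4), and for Igf2 at its most distal and most proximal starts, which held 0 and 2; that of Igf1 overlaps an annotated untranslated region and is not printed. Capitals mark GGGCGG or its complement CCGCCC, and each sequence runs 5′ to 3′ on the gene's own strand and ends at the base before the start.
Igfbp7, chr5:77408046-77408295, - strand: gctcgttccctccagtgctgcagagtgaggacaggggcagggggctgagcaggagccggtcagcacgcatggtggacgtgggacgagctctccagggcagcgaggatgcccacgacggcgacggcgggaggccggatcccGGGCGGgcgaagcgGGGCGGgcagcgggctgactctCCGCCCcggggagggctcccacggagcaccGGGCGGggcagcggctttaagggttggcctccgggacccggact
Igf2, distal start, chr7:142666817-142667066, - strand: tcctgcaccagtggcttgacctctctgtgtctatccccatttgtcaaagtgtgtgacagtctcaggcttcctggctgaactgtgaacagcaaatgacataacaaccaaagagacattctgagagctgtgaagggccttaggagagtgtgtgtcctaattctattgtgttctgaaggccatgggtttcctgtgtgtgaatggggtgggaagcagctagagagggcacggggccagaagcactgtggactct
Igf2, proximal start, chr7:142657497-142657746, - strand: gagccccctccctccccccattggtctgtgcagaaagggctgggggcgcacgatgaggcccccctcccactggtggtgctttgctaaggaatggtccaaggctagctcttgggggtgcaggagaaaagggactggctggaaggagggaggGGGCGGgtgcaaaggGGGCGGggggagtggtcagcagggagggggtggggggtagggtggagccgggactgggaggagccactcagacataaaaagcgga
A match is a string of letters and not a measured binding site, and the deposited FPKM values cover whole genes, so they do not separate the starts of Igf2. Of the 2 called genes, Igfbp7 held 4 matches and Igf1 none, and 4 of the 8 genes that were not called held a match. The only Igf1 window, at 87860861 to 87861110, lies inside the GENCODE span of the gene, which begins at 87858265. Bases upstream of that first start were not searched.

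Igf1, the ligand that binds IGF1R most tightly (protein-coding gene ENSMUSG00000020053.18, chromosome 10, 87858265 to 87937042, + strand, GRCm38), was higher in DCKO. It stood at 36.3 and 50.3 FPKM in DCKO, against 21.8 and 22.3 FPKM in controls. The controls were nearly equal, both DCKO libraries were above them, and DCKO library 2 was 1.39 times library 1. The mean was 43.3 ± 9.92 FPKM in DCKO and 22.1 ± 0.344 FPKM in controls (SD, n = 2 each), a ratio of 1.96. The log2 change was 0.92, with an SE of 0.16 and a 95% confidence interval of 0.51 to 1.34 (limma adjusted p = 0.0176). The call held under every alternative run, with adjusted p between 0.00943 and 0.0456 and log2 changes between 0.69 (without DCKO replicate 2) and 1.15 (without DCKO replicate 1). GENCODE M21 places Igf1os on the opposite strand within the gene, and the strand setting of the counting is not given in the sources used here.

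Most markers of mitral and tufted cells and of microglia, types that can make Igf1, were higher in DCKO. Of 10 markers each, endothelial cells, astrocytes and olfactory ensheathing glia had 10, 8 and 8 with both DCKO values above both controls. The share over all tested genes was 33.9%. Limma called 3, 6 and 5 of these lists higher, given below. Of all tested genes, 13.0% were called higher and 14.3% lower. Of 10 markers of mitral and tufted cells, the projection neurons of the bulb, 8 were called higher and 1 lower, and their summed FPKM was 1969 and 1712 in DCKO and 1105 and 1202 in controls. The T-box gene Tbx21, which within the bulb marks these cells, stood at 84.7 and 92.5 FPKM in DCKO and 27.4 and 30.7 FPKM in controls (log2 change 1.58). Its change was the largest of the list. Cck was the marker called lower (log2 change -0.61), and Doc2g was not called (-0.15). Of 10 markers of microglia, the resident macrophages of the brain, 7 were called higher, with a summed FPKM of 168 and 180 in DCKO and 118 and 117 in controls. Trem2, a lipid-sensing receptor of microglia, stood at 11.4 and 12.3 FPKM in DCKO and 5.96 and 4.95 FPKM in controls (log2 change 0.996), and the complement gene C1qa at 38.0 and 41.0 FPKM in DCKO and 19.7 and 21.6 FPKM in controls (0.90). Trem2 and C1qa had the largest changes of the list. The 3 markers not called were P2ry12 (log2 change -0.03), Tmem119 (-0.004) and Itgam (-0.04). The microglial count fell to 3 without control replicate 2. The summed mitral and tufted markers were higher in DCKO library 1 than in library 2, the reverse of Igf1, and the summed microglial markers had the order of Igf1 within DCKO. The part of either cell type in the Igf1 difference was not tested. The 5 tested genes whose centred log2 profile over the 4 libraries lay nearest to that of Igf1 were E130114P18Rik, Egfem1, 2810459M11Rik, Bche (butyrylcholinesterase) and the NMDA receptor subunit gene Grin3a, at Euclidean distances of 0.05 to 0.08. Grin3a stood at 21.0 and 27.5 FPKM in DCKO and at 12.6 and 12.1 FPKM in controls. Such a likeness over 4 libraries of 2 genotypes is a description.

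Igf2, the second ligand and a growth factor of fetal tissues (protein-coding gene ENSMUSG00000048583.16, chromosome 7, 142650766 to 142666816, - strand, GRCm38), stood at 108 and 163 FPKM in DCKO, against 82.6 and 59.1 FPKM in controls. Both DCKO libraries were above both controls, but the libraries within a genotype differed by a ratio of 1.51 (DCKO 2 over DCKO 1) and 1.40 (control 1 over control 2). The mean was 135 ± 38.9 FPKM in DCKO and 70.8 ± 16.6 FPKM in controls (SD, n = 2 each), a ratio of 1.91. The log2 change was 0.91, with an SE of 0.25 and a 95% confidence interval of 0.27 to 1.56, and it did not pass the test (limma adjusted p = 0.0531). It passed in 6 of 13 alternatives, and the adjusted p ranged from 0.0206 to 0.133. Of the changes in filter and scaling, it passed with a filter of a mean of 5 FPKM (adjusted p = 0.0425), with quantile normalization (0.0475), with equal medians (0.0397) and on scaled counts (0.0360). Among the fits with 1 library left out, it was under the threshold without control replicate 1, the library with the nasal and bone markers (log2 change 1.15, adjusted p = 0.0206), and without DCKO replicate 1 (1.21, adjusted p = 0.0496), and over it without control replicate 2 (0.67, adjusted p = 0.104) and without DCKO replicate 2 (0.62, adjusted p = 0.133). The antisense gene Igf2os overlaps Igf2 and stood at 0.428 and 0.628 FPKM in DCKO and 0.438 and 0.237 FPKM in controls; without a known strand setting its reads cannot be told from those of Igf2. Ins2, the insulin gene next to Igf2, was listed at 0 in all 4 libraries.

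Markers of meningeal fibroblasts moved with Igf2 only in part, while the summed red blood cell markers had its order over the libraries. Of 15 markers of meningeal fibroblasts, 6 were called higher in DCKO, against 13.0% of all tested genes, with a median log2 change of 0.73. That limma count was 13 without control replicate 1, 3 (with 2 lower) without control replicate 2, 3 without DCKO replicate 1 and 2 without DCKO replicate 2. All 15 were above 0 in every library. Their summed FPKM was 2730 and 2655 in DCKO and 1715 and 959 in controls 1 and 2, mostly from the prostaglandin D synthase gene Ptgds, which oligodendrocytes also express; without it the sums were 403 and 460 in DCKO and 472 and 210 in controls 1 and 2. The collagen gene Col1a1, which bone also expresses, accounts for much of the high sum of control 1, at 27.3 and 39.6 FPKM in DCKO and 121 and 17.6 FPKM in controls 1 and 2.

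Red blood cell markers had the same order of summed FPKM over the libraries as Igf2, at 2231 and 3153 in DCKO and 840 and 523 in controls 1 and 2. Of 10 listed, 8 were in the table and 6 were tested, with a median log2 change of 1.72. Of these 6, 3 were called higher, against 13.0% of all tested genes. That limma count was 5 without control replicate 1, 4 without control replicate 2, 3 without DCKO replicate 1 and 2 without DCKO replicate 2. Alas2, which encodes the heme synthesis enzyme of erythroid cells, stood at 8.88 and 11.6 FPKM in DCKO and 2.27 and 1.85 FPKM in controls (log2 change 1.87, limma adjusted p = 0.00321). The sum comes mostly from the haemoglobin genes, whose near-identical copies can share reads; Hba-a1 stood at 1220 and 1685 FPKM in DCKO and 493 and 196 FPKM in controls. The 3 tested markers not called were Hba-a2 (log2 change 1.57), Hbb-bs (1.56) and Hbb-b1 (0.87). The genotypes overlapped for Hbb-bs and Hbb-b1, and Hba-a2 stood at 41.6 and 131 FPKM in controls 1 and 2, the reverse of Igf2. The part of blood in the Igf2 difference was not tested.

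The order of Igf2 over the libraries (DCKO 2, DCKO 1, control 1, control 2, from high to low) was shared by 6 of the 15 meningeal markers, and by 11.6% of all tested genes. Among the 6 was Slc6a13, a GABA and taurine transporter of the meninges, at 28.7 and 39.6 FPKM in DCKO and 17.9 and 14.7 FPKM in controls (log2 change 1.01, limma adjusted p = 0.0188). Another was Aldh1a2, the retinoic acid synthesising enzyme of the meninges, at 20.4 and 25.9 FPKM in DCKO and 11.9 and 8.35 FPKM in controls (1.13, adjusted p = 0.0176, and 0.0622 without DCKO replicate 2). The ratio of Igf2 to Slc6a13 was 3.75 and 4.10 in DCKO and 4.60 and 4.01 in controls 1 and 2. The ratio of Igf2 to Aldh1a2 was 5.28 and 6.27 in DCKO and 6.93 and 7.08 in controls 1 and 2. The ratio of Igf2 to Crabp2, a retinoic acid carrier, was 8.97 and 8.99 in DCKO and 5.40 and 4.83 in controls 1 and 2, and that to the collagen gene Col3a1 was 4.80 and 5.42 in DCKO and 3.03 and 4.16 in controls 1 and 2. Over the 15 markers, both DCKO ratios were above both control ratios for 4 (Col1a1, Col1a2, Col3a1 and Crabp2) and below both for 2 (Aldh1a2 and Slc22a6), and the groups overlapped for 9. The part of meningeal tissue in the Igf2 difference was not tested. Markers of the choroid plexus were low, and 3 of 10 passed the filter, none of them called by limma (at an unadjusted p under 0.05, Kcnj13 was higher). Ttr, its most abundant transcript, stood at 2.22 and 0.479 FPKM in DCKO and 0.264 and 0.297 FPKM in controls, and the 10 markers summed to 8.80 and 7.11 FPKM in DCKO and 9.30 and 3.43 FPKM in controls 1 and 2. The 5 tested genes whose profile lay nearest to that of Igf2, at distances of 0.10 to 0.14, were the cystine transporter Slc7a11, the connexin gene Gjb2, the procollagen protease Adamts2, the platelet factor Pf4 and the galectin Lgals3. Gjb2, a connexin of the leptomeninges, stood at 15.6 and 26.1 FPKM in DCKO and 12.2 and 9.10 FPKM in controls.

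**Figure D2:**
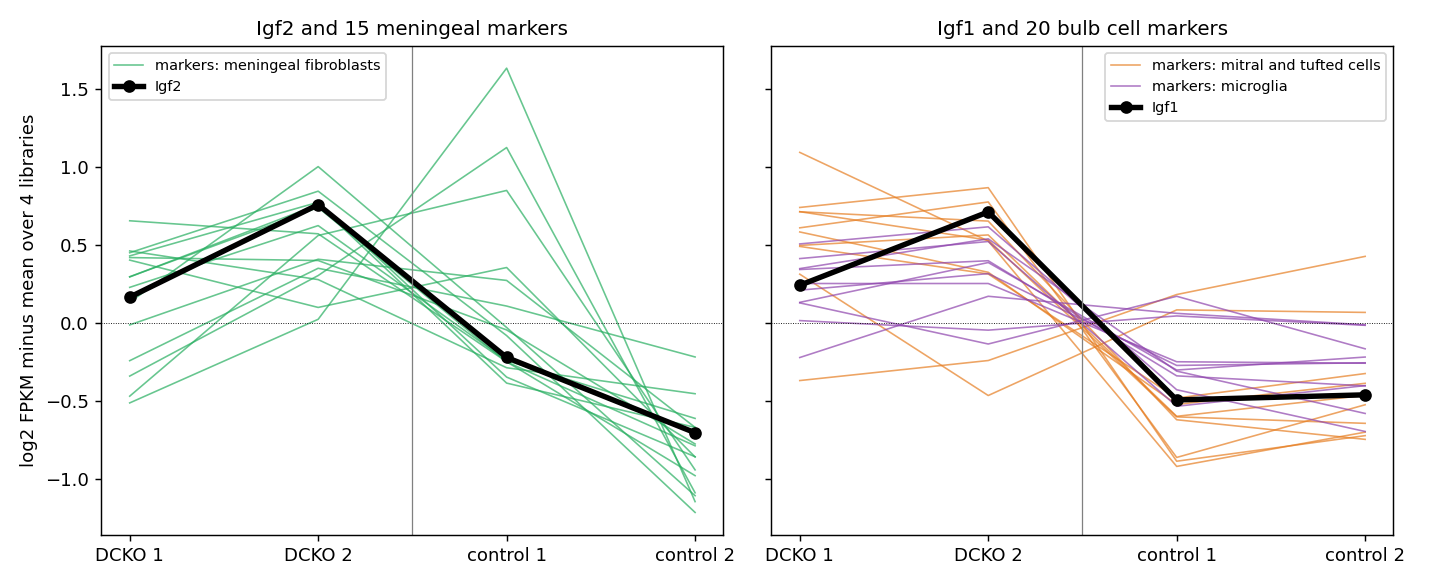
Log2 FPKM of each gene minus its mean over the 4 libraries (vertical axis), by library, for Igf2 with 15 markers of meningeal fibroblasts (left) and for Igf1 with 10 markers each of mitral and tufted cells and of microglia (right). Igf2 and most meningeal markers are lowest in control 2, and 3 of the markers peak in control 1; Igf1 is level in the controls and highest in DCKO 2.

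The ligands together summed to 144 and 213 FPKM in DCKO and 104 and 81.4 FPKM in controls, of which Igf2 made up 74.8% and 76.4% in DCKO and 79.1% and 72.6% in controls. The 6 binding proteins summed to 431 and 497 FPKM in DCKO and 451 and 411 FPKM in controls. For each FPKM of ligand transcript there were therefore 2.99 and 2.33 FPKM of binding protein transcript in DCKO, against 4.32 and 5.05 in controls. The groups did not overlap in this ratio, which moved with the ligands, while the binding protein sums overlapped. It is given without a test and rests on Igf2, which did not pass its own.

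Both receptor genes were at low and similar levels. Igf1r, the signalling receptor of both ligands (protein-coding gene ENSMUSG00000005533.10, chromosome 7, 67952827 to 68233668, + strand), stood at 6.18 and 5.51 FPKM in DCKO, against 6.35 and 5.91 FPKM in controls. The groups overlapped, and the log2 change was -0.06, with an SE of 0.10 and a 95% confidence interval of -0.31 to 0.19 (limma adjusted p = 0.660). Insr, the insulin receptor gene, whose product can pair with IGF1R, stood at 7.45 and 7.46 FPKM in DCKO and 7.35 and 6.72 FPKM in controls (log2 change 0.07, limma adjusted p = 0.523). Igf2r, the clearance receptor of IGF-II (protein-coding gene ENSMUSG00000023830.14, chromosome 17, 12682406 to 12769664, - strand), stood at 5.29 and 5.20 FPKM in DCKO, against 6.59 and 6.24 FPKM in controls. Both DCKO libraries lay below both controls, with a ratio of means of 0.818. The log2 change was -0.25, with an SE of 0.08 and a 95% confidence interval of -0.46 to -0.03, and it missed the threshold (limma adjusted p = 0.0836). Over the alternatives its adjusted p ran from 0.0422, on the scaled counts, to 0.399, without control replicate 1. Airn, the noncoding RNA that silences the paternal Igf2r allele in many tissues, overlaps Igf2r on the opposite strand. It stood at 2.54 and 2.10 FPKM in DCKO and 5.93 and 3.28 FPKM in controls (log2 change -0.72, limma adjusted p = 0.0912), and without a known strand setting reads of the pair cannot be told apart.

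The binding proteins split into a pair of genes with higher values and 4 with no consistent direction. Igfbp7, a vessel-associated relative that binds IGFs weakly (protein-coding gene ENSMUSG00000036256.13, chromosome 5, 77349240 to 77408041, - strand), stood at 95.5 and 90.6 FPKM in DCKO, against 75.9 and 74.5 FPKM in controls. The libraries of each genotype were close and the groups did not overlap. The mean was 93.0 ± 3.43 FPKM in DCKO and 75.2 ± 0.997 FPKM in controls (SD, n = 2 each), a ratio of 1.24, with a log2 change of 0.30 (SE 0.06, 95% confidence interval 0.14 to 0.47, limma adjusted p = 0.0295). Igfbp7 no longer passed when control replicate 1 (adjusted p = 0.132), control replicate 2 (0.176) or DCKO replicate 1 (0.0576) was left out, with the replicate number as a block (0.0614), or without the intensity trend, where it lay just over the threshold. All of these kept a log2 change of 0.27 to 0.32. Igfbp7 overlaps Polr2b and Gm34648 on the opposite strand.

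All 10 endothelial markers, like Igfbp7, had DCKO values above the control values, against 33.9% of all tested genes. Limma called 3 of them higher, against 13.0%. Their summed FPKM was 227 and 211 in DCKO and 161 and 160 in controls. DCKO values also lay above the control values for 8 of 10 markers each of astrocytes, olfactory ensheathing glia and mitral and tufted cells. The same held for 7 of 10 microglial and 4 of 10 mural cell markers. The tight junction gene Cldn5 stood at 123 and 119 FPKM in DCKO and 95.3 and 92.4 FPKM in controls (log2 change 0.37, limma adjusted p = 0.0177, and 0.0821 and 0.124 without control replicates 1 and 2), a ratio of means of 1.29. The count of called endothelial genes fell to 1 without either control. Among 10 mural cell markers 2 were called higher, neither of them without control replicate 2 or without DCKO replicate 2, and their summed FPKM was 169 and 210 in DCKO and 172 and 159 in controls. The part of vessel cells in the Igfbp7 difference was not tested.

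Igfbp6, a binding protein that prefers IGF-II (ENSMUSG00000023046.6, chromosome 15, 102144362 to 102149511, + strand), stood at 8.63 and 7.85 FPKM in DCKO, against 6.74 and 5.31 FPKM in controls. The groups did not overlap, but the log2 change of 0.40 (SE 0.13, 95% confidence interval 0.07 to 0.73) missed the threshold (limma adjusted p = 0.0740, range 0.0488 to 0.316 over the alternatives). It had the fewest fragments of the family, with scaled counts of 130 and 119 in DCKO and 99.8 and 75.2 in controls.

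Igfbp2, the most abundant binding protein transcript and one also expressed by astroglia and meninges (ENSMUSG00000039323.18, chromosome 1, 72824503 to 72852474, + strand), stood at 127 and 177 FPKM in DCKO, against 154 and 142 FPKM in controls. The DCKO libraries lay on either side of the controls (log2 change 0.02, 95% confidence interval -0.41 to 0.45, limma adjusted p = 0.933). Limma called 13.0% of all tested genes higher in DCKO. Of 10 astrocyte markers 6 were called higher, with summed FPKM of 1340 and 1157 in DCKO and 731 and 742 in controls, and of 10 markers of olfactory ensheathing glia, which wrap olfactory axons, 5 were called higher (3 without control replicate 1), with sums of 3517 and 4076 in DCKO and 2516 and 2590 in controls. Igfbp5, an abundant binding protein that also attaches to extracellular matrix (ENSMUSG00000026185.8, chromosome 1, 72857932 to 72874884, - strand, the neighbour of Igfbp2), stood at 130 and 117 FPKM in DCKO, against 120 and 116 FPKM in controls. Its log2 change was 0.07 (95% confidence interval -0.14 to 0.27, limma adjusted p = 0.564), and its scaled counts of 15298 to 17411 were the highest of the 10 genes.

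Igfbp4, which restrains IGF until the protease PAPP-A cuts it (ENSMUSG00000017493.12, chromosome 11, 99041244 to 99054392, + strand), stood at 59.1 and 98.4 FPKM in DCKO, against 87.1 and 64.8 FPKM in controls. Its libraries differed within each genotype by ratios of 1.66 (DCKO 2 over DCKO 1) and 1.34 (control 1 over control 2), and the wide interval of the log2 change (0.02, -0.69 to 0.73, limma adjusted p = 0.957) follows from that spread. Igfbp3, the main carrier of IGF in blood (ENSMUSG00000020427.11, chromosome 11, 7206086 to 7213923, - strand), stood at 10.8 and 6.63 FPKM in DCKO, against 8.33 and 9.26 FPKM in controls (log2 change -0.05, 95% confidence interval -0.61 to 0.51, limma adjusted p = 0.884). Its DCKO libraries also lay on either side of the controls, in the reverse order to those of Igfbp2 and Igfbp4. These intervals are wide enough to hold changes as large as that of Igfbp7, so a change of that size in Igfbp2, Igfbp3 or Igfbp4 was not detectable with these libraries.

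**Figure D3:**
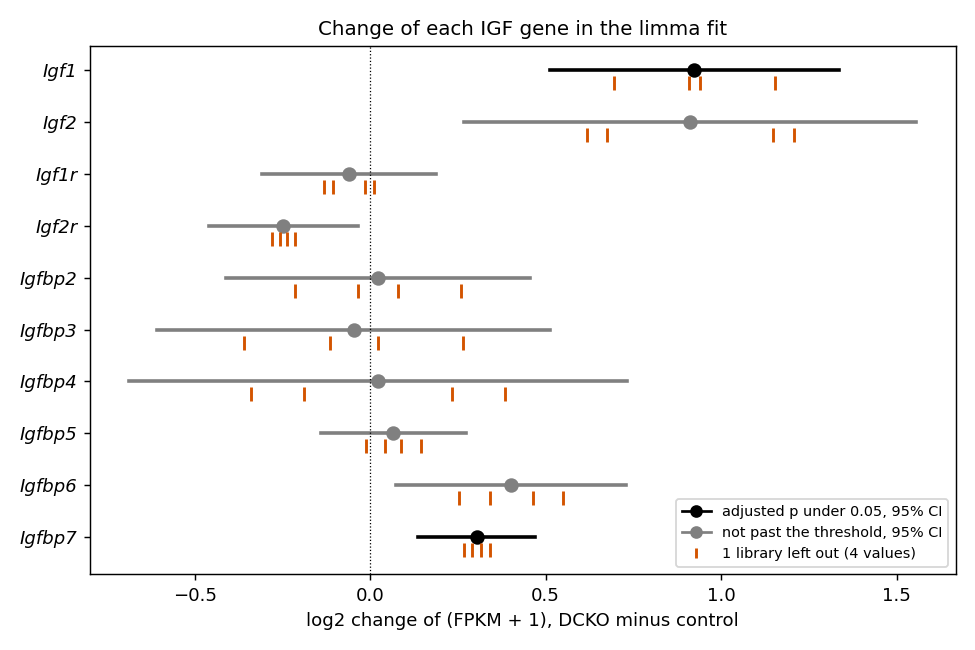
Log2 change of FPKM + 1, DCKO minus control (horizontal axis), for each IGF gene from the limma fit over all genes, with 95% confidence intervals; orange ticks are the 4 values with 1 library left out. Igf1 and Igfbp7 (black) passed the threshold, and the ticks of Igf1r, Igfbp2, Igfbp3, Igfbp4 and Igfbp5 fall on both sides of 0.

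The proteins that act on IGFs outside this set were then counted from a list of 17 related genes, of which 16 were in the table and 8 passed the filter. Of these 8, 2 were called lower in DCKO by limma and none higher, against 14.3% and 13.0% of all tested genes. At an unadjusted limma p under 0.05, Htra1 was the higher one. Stc1, a glycoprotein that inhibits the binding protein protease PAPP-A, stood at 0.550 and 0.728 FPKM in DCKO, against 2.73 and 2.61 FPKM in controls (log2 change -1.16, limma adjusted p = 0.00748). Igfbpl1, a binding-protein-like gene of migrating neuroblasts, stood at 9.01 and 13.5 FPKM in DCKO, against 20.8 and 22.7 FPKM in controls (-0.91, adjusted p = 0.0273). Both calls held with any 1 library left out, but that of Igfbpl1 was lost with no filter (limma adjusted p = 0.0634). Pappa, which encodes PAPP-A, was below the filter at 0.145 and 0.216 FPKM in DCKO and 0.653 and 0.532 FPKM in controls. The secreted protease gene Htra1 stood at 94.9 and 54.2 FPKM in DCKO and 42.2 and 40.9 FPKM in controls and did not pass (log2 change 0.78, adjusted p = 0.0853). Igfals, the acid-labile subunit of the circulating IGF complex, and Igfbp1, a liver binding protein, were near 0, at no more than 0.202 FPKM and 0.0807 FPKM in any library.

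Among 13 tested substrates and adaptors of the insulin and IGF receptors, 4 were called lower and 2 higher, against 14.3% and 13.0% of all genes. Irs2, a docking protein phosphorylated by IGF1R, stood at 5.31 and 3.52 FPKM in DCKO, against 13.4 and 13.8 FPKM in controls (log2 change -1.45, limma adjusted p = 0.00757), while its relative Irs1 stood at 5.98 and 7.79 FPKM in DCKO and 7.71 and 7.43 FPKM in controls (-0.13, adjusted p = 0.486). Grb2, which links the receptors to Ras, stood at 42.8 and 39.2 FPKM in DCKO and 71.8 and 75.9 FPKM in controls (-0.83, adjusted p = 0.00411). The phosphatase Ptpn1, which dephosphorylates these receptors, stood at 13.9 and 14.8 FPKM in DCKO and 22.6 and 23.4 FPKM in controls (-0.64, adjusted p = 0.00643). The docking protein Gab1 was higher, at 12.9 and 13.4 FPKM in DCKO and 8.69 and 8.95 FPKM in controls (0.52, adjusted p = 0.0106), a call lost without control replicate 1 (0.0506). The calls of Irs2, Grb2 and Ptpn1 held with any 1 library left out. With equal medians between libraries, 4 members of this list were higher and 4 lower, and without control replicate 1 the called members were 3, all lower.

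Further downstream, 4 of 20 tested genes of the PI3K, AKT and FOXO branch were called lower and 3 higher. The shares over all tested genes were 14.3% and 13.0%. The transcription factor Foxo1, which AKT holds out of the nucleus, stood at 17.1 and 17.7 FPKM in DCKO, against 10.9 and 9.96 FPKM in controls (log2 change 0.69, limma adjusted p = 0.00696), and the regulatory subunit Pik3r2 stood at 37.3 and 37.6 FPKM in DCKO, against 52.1 and 52.1 FPKM in controls (-0.47, adjusted p = 0.00896). These were the 2 calls of this list that held with any 1 library left out. The leukocyte-enriched catalytic subunit Pik3cd (0.75) was called as well, and lost its call without control replicate 1 and without DCKO replicate 1. Its call was also lost with no filter (limma adjusted p = 0.0627). The count was 1 higher and 1 lower without control replicate 1, 2 and 2 without control replicate 2, and 1 and 2 without DCKO replicate 1. Akt1, Akt2, Gsk3b and Pik3ca were not called.

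Of 15 tested genes of the growth-regulating kinase complex mTORC1, 2 were called lower and 1 higher, against 14.3% and 13.0% of all tested genes. Deptor, an inhibitor of mTOR, stood at 14.5 and 14.4 FPKM in DCKO, against 9.11 and 9.30 FPKM in controls (log2 change 0.60, limma adjusted p = 0.00718), and this call held with any 1 library left out. The translation repressor Eif4ebp2 (-0.42) and the mTOR brake Tsc2 (-0.34) were lower, and both lost their calls without control replicate 1 (adjusted p = 0.0533 and 0.127) and control replicate 2 (0.0945 and 0.118); Tsc2 lost it also without DCKO replicate 1 (0.0519) and with the replicate number as a block (0.0513). Deptor was thus the single call of this list without either control. Without DCKO replicate 2, 4 members were lower and 2 higher. Mtor, Rptor and Rheb were not called.

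**Figure D4:**
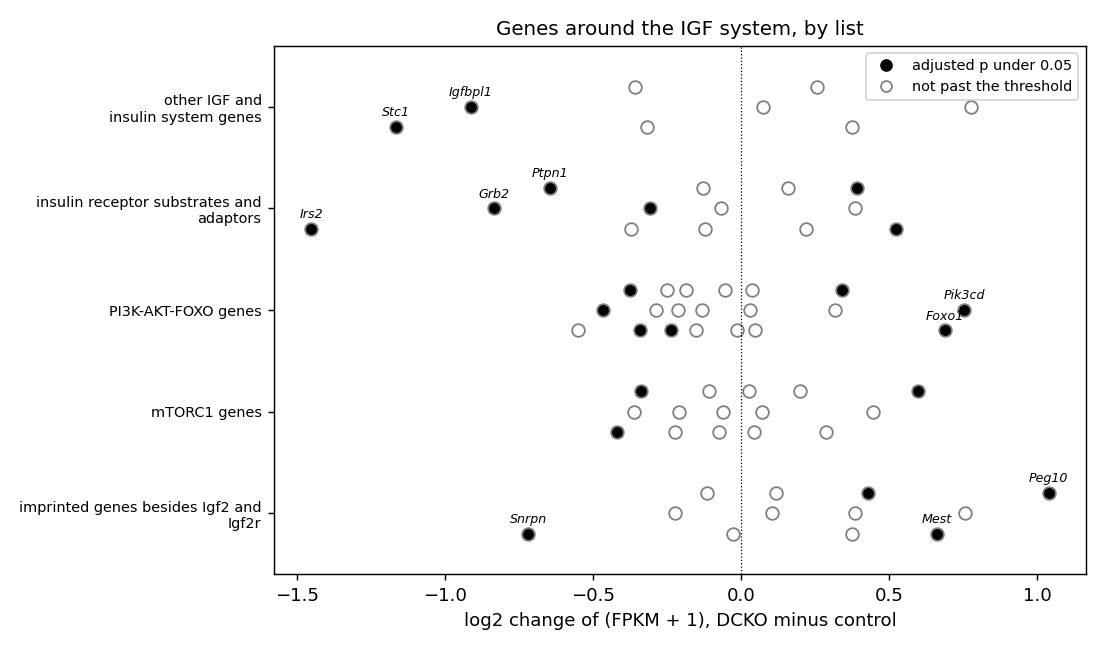
Log2 change of FPKM + 1, DCKO minus control (horizontal axis), of the tested genes in 5 lists around the IGF system; filled points passed the limma threshold, and called genes beyond 0.6 in either direction are named. Each list holds called genes on the lower side, and all but the top list hold some on the higher side.

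Other imprinted genes were set beside Igf2 and Igf2r. Of 12 tested, 3 were called higher and 1 lower, against 13.0% and 14.3% of all tested genes. H19 is the noncoding neighbour of Igf2 and shares its enhancers, and in most tissues it is expressed from the other parental allele. It stood at 7.09 and 10.6 FPKM in DCKO and 7.81 and 5.31 FPKM in controls, and did not pass (log2 change 0.38, 95% confidence interval -0.24 to 0.99, limma adjusted p = 0.281). Peg10, a retrotransposon-derived gene (4.69 and 7.03 FPKM in DCKO, 2.11 and 2.48 FPKM in controls, log2 change 1.04), and Mest, a hydrolase-fold gene of mesodermal tissue (53.3 and 50.3 FPKM in DCKO, 32.7 and 32.1 FPKM in controls, 0.66), were higher, with limma adjusted p of 0.0206 and 0.00508, and held their calls with any 1 library left out. Ndn (0.43), an imprinted gene of neurons, lost its call without either control or DCKO replicate 1 (adjusted p = 0.114, 0.0525 and 0.0558). Snrpn (-0.72), a splicing factor gene of neurons, was lower and lost its call without control replicate 1 or 2. Its call was also lost with equal medians (limma adjusted p = 0.0526), with no filter (0.0834) and without the intensity trend (0.0518). With no filter, Peg10 lost its call as well (0.0529).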

How the data were processed

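Total RNA of mouse olfactory bulbs was sequenced in 4 libraries, 2 per genotype. Per the submitters' processing notes, the authors used GRCm38.p4, TopHat with no version named, and Cufflinks 2.1.1; the sources used here give neither annotation nor strand setting. Per the file headers, the deposited table holds FPKM made by the authors, and columns headed count that are not whole numbers, treated here as a signal scaled by the authors, so no count model was applied. Columns were matched to samples by the codes in the sample descriptions, with 0 columns unmapped.

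The 13434 genes averaging 1 FPKM or more were fitted as DCKO minus control, on log2(FPKM + 1), by limma 3.58.1 (R 4.3.3, trend over intensity). Fold changes are on that scale, which understates changes of low genes. Of all tested genes, 1747 were higher and 1926 lower at an adjusted p below 0.05, a share of 47.6% higher, which was 58.5% with equal medians between libraries; 5790 passed at an unadjusted p below 0.05. The fit was tested on simulated data.

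The members, lists and tests were chosen with earlier results of these data known. Named genes were the 10 IGF genes, Sp8 and Sp9, and in each pathway list up to 4 called genes of largest change, except that some genes of the lists are counted but not reported here by name; genes named without a call, cell type markers beyond their lists' sums, Airn, Igf2os, the sums over ligands, binding proteins and markers, the ratios of Igf2 to markers and the promoter search were chosen after values were seen. The nearest profiles were 5 tested genes for each IGF gene spanning at least 1 on the log2 scale. Coordinates are from GENCODE M21 (GRCm38). Alternatives covered the pseudocount, filter, scaling, variance trend, replicate block, libraries left out and scaled counts.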

Additional observations from a re-analysis of the deposited data

How the results depend on the processing

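With 4 libraries, precision was limited, and a lone library left in a genotype was assumed to vary like the other pair. Of 130 values of the 10 IGF genes under the alternatives, 108 kept direction and side of the threshold. The count of IGF genes higher in DCKO (2) was 4 with quantile normalization, adding Igf2 and Igfbp6, 3 with a filter of 5 FPKM, with equal medians and on scaled counts, adding Igf2 in each, 1 without the intensity trend and 1 with the replicate block, and ranged from 1 to 2 with 1 library left out. The count of lower IGF genes (0) was 1 on scaled counts, and 0 in each fit with 1 library left out. Over all genes, 806 to 1384 were higher and 1030 to 1875 lower with 1 library left out. Igfbp3 turned to 0.010 with equal medians. With 1 library left out, sign changes occurred for Igf1r (-0.13 to 0.012), Igfbp2 (-0.22 to 0.26), Igfbp3 (-0.36 to 0.27), Igfbp4 (-0.34 to 0.39) and Igfbp5 (-0.013 to 0.14). The causes were not tested. The replicate numbers are shared by both genotypes, but same-numbered libraries did not deviate together (correlation -0.02 across genes), so the numbers were not taken as pairs; with the replicate block 1312 genes were higher and 1418 lower. Of 386 values of the other genes chosen by the naming rule, 40 lost the call and none changed sign.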
